A study of Mus musculus with 2 samples.

Results

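Peg10 and Rtl8a, protein-coding genes that descend from a retrotransposon, were examined in an RNA immunoprecipitation of Mov10 from mouse brain. RNA came from the brains of 28 pooled wild-type C57bl/6 pups at postnatal day 2 (P2). One pool gave 1 library of RNA immunoprecipitated with an antibody to Mov10 (IP) and 1 library of total input RNA, so there was no replicate and no test between them. The pups carried no transgene, and the pool mixed every cell type of the brain. The members were selected on measured values: they are the peaks in the deposited list of IP-enriched regions that shared 1 base or more with an exon of either gene on the strand opposite the peak. There were 5 such peaks, 4 in Peg10 and 1 in Rtl8a, out of 2296 peaks in the list and out of 768 peaks on assembled chromosomes that overlapped an exon in this way, called exonic peaks here. In bulk RNA, fewer cells of a type and less RNA per cell cannot be told apart.

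Peg10 (paternally expressed gene 10) and the Rtl8 genes come from long terminal repeat retrotransposons of the Ty3/gypsy kind that lost the ability to move and were kept by mammals as genes. Peg10 still has frames like gag and pol, the genes for the capsid and for the enzymes of such elements, and its pol-like frame is read only when ribosomes slip back by 1 base at a short slippery sequence. Peg10 is imprinted, is needed for the mouse placenta and encodes a protein that binds RNA. Rtl8a lies on the X chromosome among near copies, and encodes a short protein like a piece of gag. Mov10 is an RNA helicase that binds many mRNAs and restrains retroelements, so these mRNAs are cellular transcripts of retroelement descent among its candidate partners.

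The sequences below are those that the positions of the peaks turn on. They were taken from GENCODE transcripts on GRCm38 (mm10) and are written 5′ to 3′ on the strand of the gene. The first is the coding part of the Peg10 peak nearest the 5′ end (chr6:4754221-4754400, plus strand, 180 bases), with the start codon in capitals. The second is the frameshift site (chr6:4755300-4755351, plus strand), with the slippery heptamer and then the stop codon of the gag-like frame in capitals, and no peak covered it. The third is the 3′ part of the second Peg10 peak (chr6:4756101-4756400, plus strand), with each copy of CATCAG in capitals.
Peg10 start: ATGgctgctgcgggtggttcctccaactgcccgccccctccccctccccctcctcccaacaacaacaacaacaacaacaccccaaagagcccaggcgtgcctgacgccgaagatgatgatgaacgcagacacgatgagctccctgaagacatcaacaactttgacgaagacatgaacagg
Peg10 frameshift site: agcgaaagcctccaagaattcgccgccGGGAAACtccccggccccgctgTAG
Peg10 second peak: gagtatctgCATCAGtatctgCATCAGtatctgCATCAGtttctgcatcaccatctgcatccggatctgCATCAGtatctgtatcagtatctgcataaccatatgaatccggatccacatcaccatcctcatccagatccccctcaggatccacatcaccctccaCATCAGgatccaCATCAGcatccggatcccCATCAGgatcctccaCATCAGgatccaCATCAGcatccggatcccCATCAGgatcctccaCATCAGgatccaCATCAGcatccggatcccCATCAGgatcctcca

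The last pair is the coding part of the Rtl8a peak (chrX:53643280-53643375, minus strand, 96 bases ending with the stop codon) beside the same stretch of Rtl8c (chrX:53608289-53608384, plus strand), with the bases that differ from Rtl8a in capitals in Rtl8c. Rtl8c differed at 13 of the 96 bases. Rtl8b (chrX:53669957-53670052, minus strand) was identical to Rtl8a over all 96, so its letters are not repeated.
Rtl8a: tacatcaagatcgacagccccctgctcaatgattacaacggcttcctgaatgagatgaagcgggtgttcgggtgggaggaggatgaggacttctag
Rtl8c: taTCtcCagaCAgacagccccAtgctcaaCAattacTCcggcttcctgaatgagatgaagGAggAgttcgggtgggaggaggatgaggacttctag

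Reads over Peg10 were more frequent in the IP than in the input at each of its peaks. The peak at the start codon, called peak 1 (chr6:4754201-4754400), held 506 IP reads and 39 input reads. Peak 2 (chr6:4756001-4756400) held 1384 IP reads and 99 input reads. Peak 3 (chr6:4756801-4757000) held 564 IP reads and 56 input reads. The IP count was thus many times the input count in every peak, and peak 2, the longest at 400 bases against 200 for the others, held the most. Peak 4, near the 3′ end of the mRNA (chr6:4760001-4760200), held 476 IP reads and 41 input reads. The single peak of Rtl8a (chrX:53642761-53643375, 615 bases) held 6052 IP reads and 366 input reads.

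Levels between the genes were compared as deposited reads per 1000 bases of peak, which are not scaled to library depth. Over Peg10 the IP level was 2530, 3460, 2820 and 2380 in peaks 1 to 4, and the input level was 195, 247.5, 280 and 205. The peaks thus lay close together in both libraries, and the order of the IP levels was not the order of the input levels. The IP level of the Rtl8a peak was 9841 and its input level was 595. Rtl8a stood above every Peg10 peak in both libraries. With the reads of the Peg10 peaks summed (2930 in the IP and 235 in the input, over 1000 bases), Rtl8a was 3.36-fold higher per 1000 bases in the IP and 2.53-fold higher in the input.

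**Figure D1:**
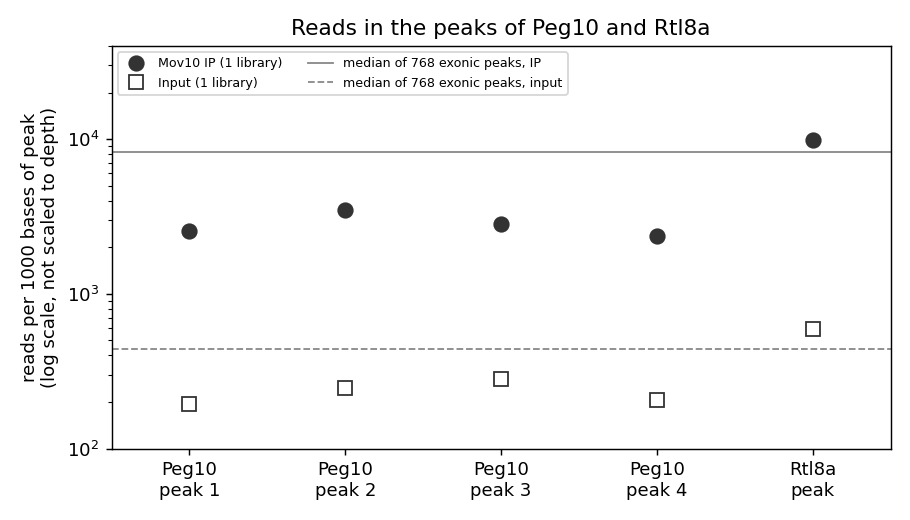
Reads per 1000 bases of peak (log scale, not scaled to depth) in the 4 Peg10 peaks and the Rtl8a peak, in the 1 IP library (filled circles) and the 1 input library (open squares), with the medians of the 768 exonic peaks as lines. The Peg10 peaks sit between 2380 and 3460 in the IP, below the median of 8243, and the Rtl8a peak at 9841 sits above it.

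Scaled to the aligned reads of each library, the IP over input ratio of Peg10 was 10.4 (95% counting interval 9.10 to 11.9) with its peaks summed. The ratio of Rtl8a was 13.8 (12.4 to 15.4). Intervals are exact conditional binomial intervals, cover counting error only, and say nothing of how another pool of pups would vary. The Rtl8a ratio was 1.33 times that of Peg10, with a counting interval of 1.11 to 1.58. By peak, Peg10 had ratios of 10.8 (7.80 to 15.4), 11.7 (9.50 to 14.4), 8.40 (6.37 to 11.3) and 9.68 (7.03 to 13.7) in peaks 1 to 4. In each of the 6 pairs of Peg10 peaks the counting interval of the ratio of their ratios held 1. The widest contrast, peak 2 over peak 3, was 1.39 (0.967 to 1.98), so the peaks of Peg10 were not separated beyond counting error at this depth.

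These ratios were within the common run of the list. The median over the 768 exonic peaks was 14.6, with quartiles of 8.96 and 23.3. The Peg10 peaks ranked 515, 484, 598 and 547 by ratio, in the lower part of the order, and Rtl8a ranked 406, near the middle. All 5 member peaks had an interval above 1, as did 99.3% of exonic peaks, which the choice of peaks as IP-enriched regions largely fixes. All 5 passed a deposited adjusted p of 0.05, beside 43.4% of all peaks and 90.4% of exonic peaks. This call went largely by chromosome and strand: of 30 chromosome strands with exonic peaks, 24 passed as a whole, 3 failed as a whole and 3 were mixed. Every exonic peak passed on the strands opposite Peg10 and Rtl8a. With all peaks of a gene summed, among 541 genes with at least 100 IP reads and 10 input reads, Peg10 ranked 359 by ratio and 236 by IP reads, and Rtl8a 281 and 92. Just above peak 2 in the order of ratios stood peaks of Gm13408 (11.7) and the initiation factor gene Eif1 (11.7), and just below it those of Crmp1 (11.6), a gene for a semaphorin signalling protein, and Gm7729 (11.6). Just above Rtl8a stood peaks of Immt (13.8), which shapes the inner mitochondrial membrane, and of the chaperone gene Dnajb11 (13.9), and just below it those of Pspc1 (13.8), a paraspeckle protein gene, and Gm4462 (13.8).

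**Figure D2:**
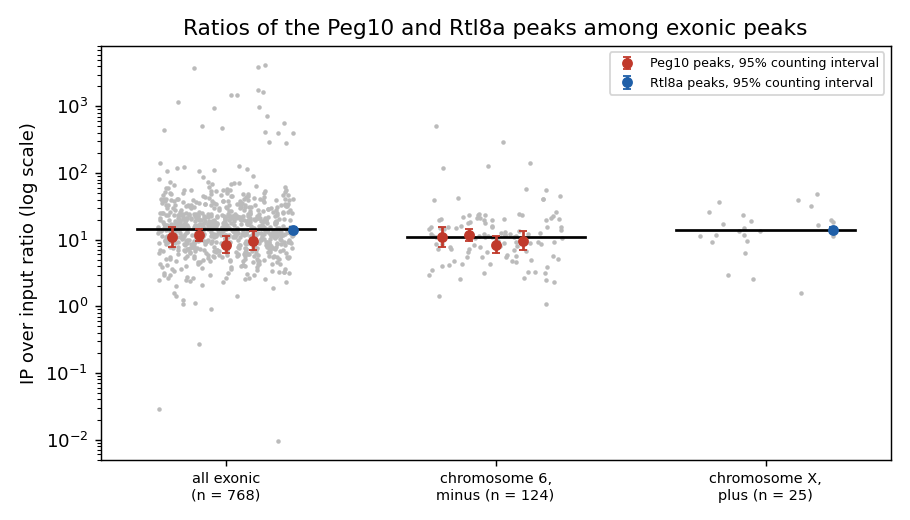
IP over input ratio (log scale) of the Peg10 and Rtl8a peaks with their 95% counting intervals, among all 768 exonic peaks, the 124 on the minus strand of chromosome 6 and the 25 on the plus strand of chromosome X (grey points; black lines are medians, members included). The Peg10 peaks lie at 8.40 to 11.7 and the Rtl8a peak at 13.8, beside medians of 14.6, 11.1 and 13.8.

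The peaks were called on each strand separately, and their values went by chromosome and strand. On the minus strand of chromosome 6, opposite Peg10, the 124 exonic peaks had a median ratio of 11.1, and the Peg10 peaks ranked 67, 58, 83 and 72 among them. On the plus strand of chromosome X, opposite Rtl8a, the 25 exonic peaks had a median of 13.8, which was the Rtl8a peak itself, ranked 13. Both genes were therefore near the middle of their own strand. IP levels fell into narrow bands. On chromosome 6 minus they ran from 2125 to 3985 reads per 1000 bases, and on chromosome X plus from 6707 to 10898. Over the 28 chromosome strands with at least 5 exonic peaks the highest level was at most 1.88 times the lowest, against 58.2 times over all exonic peaks. A peak at the level of the highest Peg10 peak or below was listed on 2 of the 30 chromosome strands with exonic peaks, chromosomes 6 minus and 16 minus. The median of chromosome X plus was 3.10 times that of chromosome 6 minus in the IP and 2.52 times in the input, close to the 3.36-fold and 2.53-fold between Rtl8a and Peg10. The strand and the gene cannot be told apart in these level differences. Nor can they in the 1.33-fold difference in ratio, since the strand medians of the ratio were 13.8 and 11.1.

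Within a strand the order of ratios followed the input. Spearman's rho between the ratio and the input level was -0.97 over the 124 exonic peaks on chromosome 6 minus and -0.96 over the 25 on chromosome X plus, a description across peaks of the same libraries whose ratio holds the input count. With the IP level it was 0.00 and 0.45. By input level the Peg10 peaks ranked 68, 50, 44 and 64 of 124 on their strand, and the Rtl8a peak 8 of 25.

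The deposited empirical false discovery rate (eFDR), which compares peaks called in the IP with those called after the libraries were swapped, separated the genes in the same way. At an eFDR of 0.05 all 4 Peg10 peaks passed and the Rtl8a peak, at 0.148, did not, beside 36.8% of exonic peaks. However, all 124 exonic peaks on chromosome 6 minus passed, and 0 of the 25 on chromosome X plus, each of which had the same eFDR of 0.148. Of the 30 chromosome strands, 5 passed as a whole, 24 failed as a whole and 1 was mixed. The difference in eFDR between Peg10 and Rtl8a was thus the difference between their strands.

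**Figure D3:**
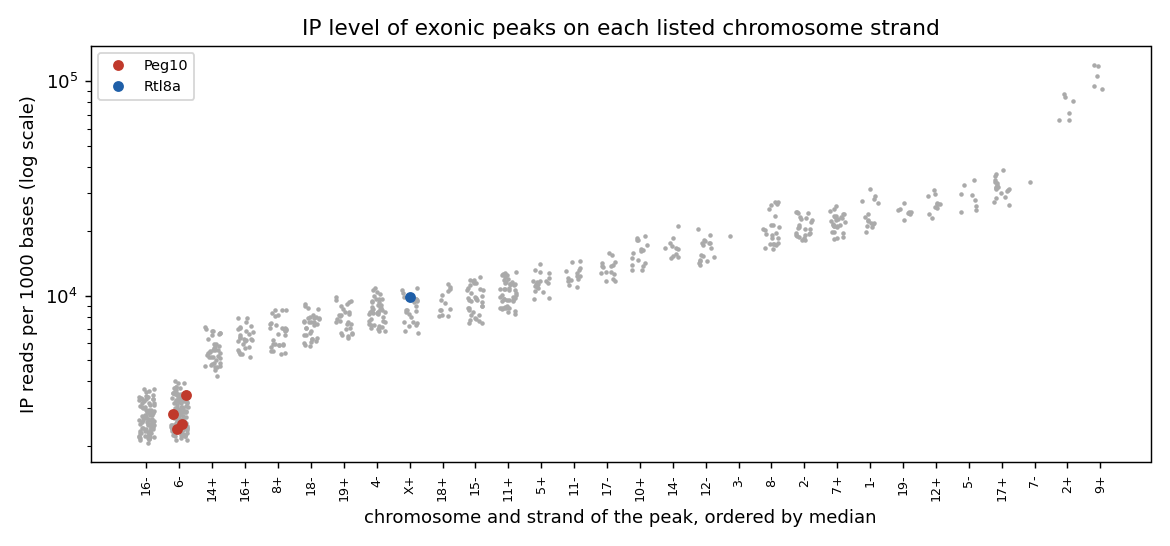
IP reads per 1000 bases (log scale) of the 768 exonic peaks by chromosome and strand, ordered by median, with Peg10 and Rtl8a in colour and the other peaks in grey. Each strand holds a narrow band, and the Peg10 peaks (2380 to 3460) and the Rtl8a peak (9841) lie within the bands of theirs.

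Along the Peg10 mRNA, the listed peaks covered separate places rather than the whole. The authors did not UV cross-link the brains used for this sequencing. A peak is thus a stretch listed for its IP reads and is not shown to be a place that Mov10 touches. In the GENCODE model that keeps the gag-like frame alone, the mature transcript has 6667 bases, and the 4 peaks covered 15% of it. Peak 1 spanned bases 351 to 550 and held 20 bases of the 5′ untranslated region (UTR) and 180 coding bases from the start codon, which are the first 60 codons of the gag-like frame. Of the 768 exonic peaks, 11.8% overlapped a start codon. Peak 2 spanned bases 2151 to 2550 and peak 3 bases 2951 to 3150, and both lay wholly in the pol-like frame, over codons 595 to 727 and 862 to 927 of the 1006 codons that a slip of 1 base back at the heptamer joins. Peak 4 spanned bases 6151 to 6350, in the long 3′ UTR, and ended 317 bases before the 3′ end of the transcript. Between the peaks lay 1600, 400 and 3000 bases with no listed peak. A stretch with no listed peak is not shown to lack Mov10. The caller kept fixed bins of 200 bases on this strand, and the levels of its exonic peaks ran only from 2125 to 3985. The level of the stretches without a listed peak is not known.

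No peak covered the frameshift site. The heptamer GGGAAAC occurred once in the Peg10 transcript, at bases 1477 to 1483 (chr6:4755327-4755333, plus strand), 927 bases after the end of peak 1 and 668 bases before the start of peak 2. None of the 5 member peaks held it on either strand, and 2.60% of exonic peaks did (0.651% on the strand of the gene). The codons of the zinc knuckle, a short retroviral motif that binds nucleic acid, lay at bases 1406 to 1447, and those of the triad of aspartic acid, serine or threonine, and glycine at the active site of retroviral proteases at bases 1630 to 1638. Both were in the stretch between peaks 1 and 2. The stop codons of the gag-like frame, at bases 1499 to 1501, and of the pol-like frame, at bases 3388 to 3390, were also outside the peaks. Peaks in the pol-like frame lie on the same RNA whether or not ribosomes shift, so they do not measure frameshifting.

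**Figure D4:**
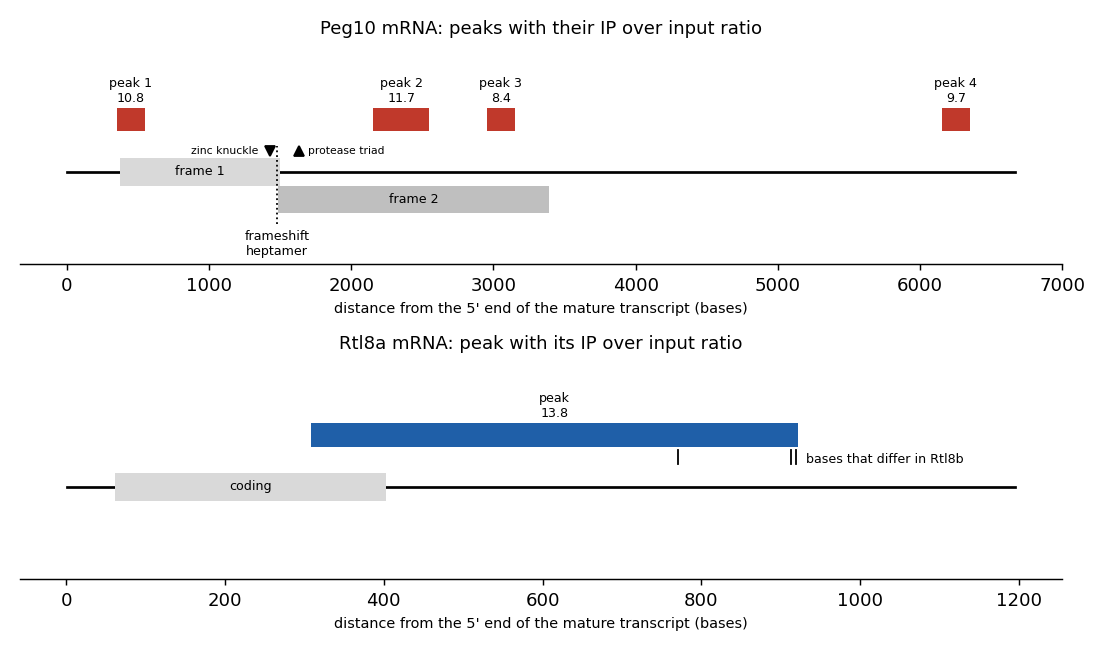
Peaks of Peg10 (red) and Rtl8a (blue) along the mature transcripts (distance from the 5′ end in bases), with reading frames in grey, the frameshift heptamer, the zinc knuckle and the protease triad of Peg10, and the 3 bases of the Rtl8a peak that differ in Rtl8b. Peg10 peak 1 lies over the start of frame 1, peaks 2 and 3 over frame 2 and peak 4 near the 3′ end, and the Rtl8a peak runs from the end of the coding sequence into the 3′ UTR; the numbers over the peaks are IP over input ratios.

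The 4 Peg10 peaks differed in base composition. Their GC content was 58.5, 49.8, 51.0 and 34% in peaks 1 to 4, beside a median of 53.3% over the exonic peaks, and peak 4 ranked 758 of 768 from the highest. Peak 1 was rich in cytosine (38.5%), as its printed run of the codons ccc and cct shows, and peak 4 in adenine (36.0%). Peak 2 lay over a tandem repeat of the pol-like frame. Of its words of 15 bases, 40.4% occurred in it more than once, the second highest share of the 768 exonic peaks, of which 92.3% had none. CATCAG occurred 13 times in peak 2, 0 times in the other member peaks and at most 4 times in any other exonic peak, and 14.8% of exonic peaks held it on either strand. The word was picked from peak 2 itself, so its excess there is a description. Peak 2 was also long, at 400 bases against a median of 205 over the exonic peaks, which leaves more room for repeated words. The codons CAT and CAC, for histidine, made up 27.1% of the 133 codons under peak 2, against 13.9% of the 635 codons of the whole pol-like frame. How reads that match several copies of the repeat were placed was not tested. The ratio of peak 2 was 11.7, and its interval overlapped those of the other peaks.

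**Figure D5:**
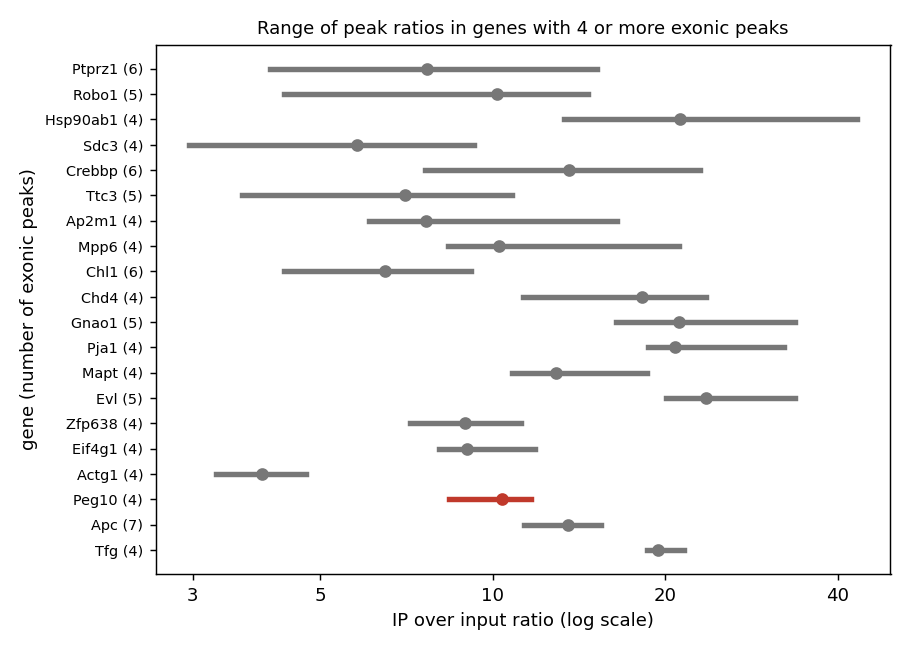
Range of peak ratios (lines, log scale) and ratio of summed reads (points) in the 20 genes with at least 4 exonic peaks, ordered by the highest over the lowest ratio. Peg10 (red), at 8.40 to 11.7, has the third narrowest range.

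Peg10 was 1 of 20 genes with 4 or more exonic peaks, out of 558 genes with any. Its highest ratio was 1.39 times its lowest. That spread was the third smallest of the 20, after Tfg (1.16) and Apc (1.36), beside a median of 2.07 and a largest value of 3.72 in Ptprz1, a receptor phosphatase of glia. The order took no account of counting error or of the number of peaks, which was 7 in Apc and 6 in Ptprz1. The genes nearest to Peg10 in log2 ratio, among 46 others with at least 3 peaks, were Jph4 (10.4), which joins the endoplasmic reticulum to the plasma membrane in neurons, Mpp6 (10.3), a membrane scaffold gene, and Robo1 (10.2), the Slit receptor. Mpp6 lies on the same chromosome strand, and its peaks ranged from 8.36 to 21.1, wider than those of Peg10. Robo1 on chromosome 16 ranged from 4.33 to 14.7. For Rtl8a, among 539 genes, the nearest were Pspc1 and Gm4462, named above, and Syn1 (13.7), the gene of the synaptic vesicle protein synapsin I. Syn1 is on chromosome X too, with 3 peaks, an IP level of 9451 and an input level of 574 reads per 1000 bases, beside 9841 and 595 for Rtl8a.

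The Rtl8a peak covered 51.5% of a mature transcript of 1195 bases, from base 308 to base 922. It held 96 bases at the end of the coding sequence, stop codon included, and 519 bases of 3′ UTR, and its GC content of 62.3% ranked 132 of 768. A stop codon lay under 10.8% of exonic peaks. The gene encodes 113 codons, of which most lie before the peak. Bins on chromosome X plus were 205 bases long, so the peak was 3 bins, and its edges are not resolved more finely than that.

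The reads of the Rtl8a peak cannot be given to Rtl8a alone. Rtl8b, which lies 25495 bases away on the same strand, matched the peak at 99.5% identity over all 615 bases, and the coding sequences were identical over all 339 bases. Counted from 1 at the 5′ end of the peak, the differences in Rtl8b were C464A, C606A and C612T, so the first 463 bases of the peak, among them the printed coding stretch, were the same in both genes. Rtl8b had no listed peak, although it lies opposite the same strand. The caller assigned each read with several hits to 1 locus, and what share of the 6052 IP and 366 input reads came from Rtl8b was not tested. Rtl8c was more distant: it matched the peak at 87.9% over 140 bases, its coding sequence was alike at 81.0% of aligned positions, and its protein at 67.5%. Its GENCODE transcript has 401 bases, so most of the UTR part of the peak could not be compared with it. Rtl8c lies opposite the minus strand of chromosome X, on which the list analysed here holds no peak. No near-identical copy (95% identity over at least 100 bases) of any Peg10 peak was found in another GENCODE gene.

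No other listed peak lay in either gene, and the distances below were not compared with the usual spacing of the list. No exon of another gene overlapped a member peak on either strand. The nearest other peak on chromosome 6 lay 206106 bases from Peg10, over Col1a2, a collagen gene of vessels and meninges, with a ratio of 14.6. Sgce, the imprinted neighbour that starts 99 bases from Peg10 on the other strand, lies opposite the plus strand of chromosome 6, which has no listed peak. Ppp1r9a, the next protein-coding gene after Peg10, which encodes an actin-binding protein of neurons, had 1 peak with a ratio of 10.9 (8.60 to 14), beside 10.4 for Peg10. The nearest other peak on chromosome X lay 14956323 bases from Rtl8a. The protein-coding neighbours of Rtl8a, Gm14597 and Rtl8b, had no listed peak.

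Among genes of retroelement descent, Peg10 and Rtl8a were the pair with an exonic peak. The list held 31 genes, of which 29 were matched in GENCODE by current or older symbols. Of these, 20 lie opposite a chromosome strand with any listed peak, so for the other 9, among them Arc, Ldoc1, Rtl4, Rtl6, Rtl8c and Rtl9, the list could hold none. The 18 on such strands without a peak included Rtl1, Rtl3, Rtl5 and Rtl10, the retroviral envelope genes Syna and Synb, and Pnma1, Pnma2 and Moap1 of the paraneoplastic antigen family. The share with a peak was thus 2 of 20, or 10%, beside 2.71% of all protein-coding genes on such strands (449 of 16581). The members were chosen for having peaks, so this count is a description. It takes Rtl8b as a gene without a peak, although the reads of the Rtl8a peak cannot be given to Rtl8a alone. The absence of a peak is not evidence of no binding, because the levels that were listed differed between strands.

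Peg10 also belongs to the imprinted genes, of which 7 of 45 had an exonic peak, or 18.9% of the 37 on listed strands, beside 2.71% of all protein-coding genes on such strands. The imprinted list holds noncoding genes too, among them H19 and Meg3, so the shares are of unlike sets. Neither share was limited to genes expressed in brain. The list was chosen with earlier results of these data known, so this count is a description. Among those with a peak, the ratio was 77.2 for the growth factor gene Igf2 and 50.5 for the noncoding RNA H19. It was 23.4 for Gnas, 13.7 for Nnat and 7.83 for Ndn, so that Peg10, at 10.4, and Ppp1r9a were near the low end. The median ratio of exonic peaks was 22.5 on chromosome 7 plus, opposite Igf2 and H19. It was 11.1 on chromosome 6 minus, opposite Peg10 and Ppp1r9a, which were both near it. The Igf2 peaks (53.5 to 105.5) and the H19 peak (50.5) lay above the upper quartile of their strand, 31.4. What share of this order goes with the strand was not tested. As a check of the label, exonic peaks were counted for markers of cell types on listed strands. There were peaks for 5 of 9 neuronal markers, 3 of 6 of astrocytes and radial glia, 1 of 4 of the oligodendrocyte lineage and 3 of 6 of vessels and meninges. Microglia, blood and choroid plexus had 0 of 3 each, too few genes at that overall share to read an absence from. Which of these cells the Peg10 and Rtl8a reads came from was not tested.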

How the data were processed

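RNA from the P2 brain pool was sequenced as 1 IP and 1 input library. The authors also made a library from an immunoprecipitation with an irrelevant antibody, called its contribution negligible and left it out. It was not used here, so the IP over input ratios do not separate RNA held by Mov10 from RNA recovered without it. The authors aligned reads with TopHat2 2.1.1 (base calls by bcl2fastq 2.17.1.14) to unmasked mm10, allowing up to 2000 alignments a read, and called peaks with RIPSeeker on each strand, IP against input. Reads with several hits were assigned to 1 locus. The deposited table holds other values per peak: read counts not scaled to depth, counts per 1000 bases, p-values, adjusted p and eFDR. Exons came from GENCODE M21 (GRCm38). The stated aligned reads (71522027 IP, 59620379 input) scaled the ratios. Unless a count was 0 (then set to 3), nothing was added. Intervals are at 95%. Copies were sought with BLAST+ 2.17.0. Python 3.11.15, numpy 2.4.6, pandas 2.3.3, scipy 1.17.1, biopython 1.88 and matplotlib 3.10.9 were used, and the interval and overlap steps were tested on simulated data.

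The members and gene lists were chosen with earlier results of these data known. Genes named by rule were the members, listed retroelement-derived and imprinted genes with a peak, the 3 genes nearest in log2 ratio, neighbours, near-identical copies, and peaks next in the order of ratios. Col1a2, Tfg, Apc, Ptprz1 and listed genes without a peak were named after their values were seen. With 1 library a group, no p-value was computed. Alternatives were library totals, added counts, single peaks, overlap, strand, annotation and thresholds.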

Additional observations from a re-analysis of the deposited data

How the results depend on the processing

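The ratios of Peg10 and Rtl8a and the median of exonic peaks stayed above 1 under each alternative run for them, but their size rests on the library totals. With uniquely aligned reads (for this count added after seeing the data) the interval lay above 1 in 98.7% of exonic peaks and in all 5 member peaks. Scaled to uniquely aligned reads, the ratio was 6.37 for Peg10, 8.45 for Rtl8a and 8.97 for the median of exonic peaks, all by the same factor of 0.613, so that no rank moved. Adding 10 to both counts moved that median to 13.0, below Rtl8a at 13.4 under the same setting. Leaving out each Peg10 peak in turn gave 9.48 to 11.0. With only the peak of most IP reads Peg10 was at 11.7. At an eFDR of 0.05, 1 gene of retroelement descent kept a peak, Peg10, in place of 2. The 5 member peaks stayed 5 with at least 50% of the peak over the exon, with either strand and with RefSeq gene spans (added after seeing the data), and 4 passed the eFDR. Among the other 34 values of single peaks and ranks under an alternative, 25 were counted as the same and 9 as moved. The moved values were 5 ratios with uniquely aligned reads and 4 ranks among eFDR-passing peaks. Those ranks were taken among 283 peaks rather than 768. The alternative without near-identical copies left no peak for Rtl8a, and RefSeq exons alone were not run. No paired analysis was possible because there was 1 library a group. Counts of 39 to 99 input reads limit the Peg10 peaks.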
